A study of Mus musculus with 4 samples.

Results

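Among cells sorted along the path from endothelium to blood, 184 genes had their highest signal in the cells that carried Runx1, VE-cadherin and CD41 at once, called population 3 here. They were selected by their own values on the arrays. Each gene was read by the probe set, annotated to it alone, with the highest mean log2 signal, and it was kept if its signal exceeded 100 in at least 1 population, if the standard deviation (SD) of its 4 log2 signals exceeded 1, and if population 3 was the highest. Of 18194 genes read in this way, 9468 had a signal above 100 and 1380 also passed the SD limit, so that the 184 genes were 13.3% of the variable genes and 1.94% of those above 100. Of the other variable genes, 612 peaked in population 1, 89 in population 2 and 495 in population 4.

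All populations came from day 6 co-cultures of a single mouse ES cell line, derived from CCE cells, on OP9 bone marrow stromal cells, with no further treatment. In this Runx1(Venus/+) line the fluorescent protein Venus is read out from the proximal Runx1 promoter of 1 allele, so every population was heterozygous for the insertion, controls included. Sorting gave population 1 (Runx1-/VE-cadherin+/Flk1+), population 2 (Runx1+/VE-cadherin+/CD41-), population 3 (Runx1+/VE-cadherin+/CD41+) and population 4 (Runx1+/VE-cadherin-/CD41+), and RNA of each was hybridised to 1 Affymetrix mouse array. With 1 array per population there is no replicate check, no test between populations and no error, and the signals, given as linear intensities, describe these arrays only. The study also ran a second set of samples of these populations on Agilent arrays, which was not analysed here.

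Blood cells of the embryo arise from endothelial cells that switch on Runx1, acquire the integrin CD41, round up and lose junction proteins such as VE-cadherin. Cells that carry both CD41 and VE-cadherin stand in the middle of this change, and they hold transcripts of the vessel wall beside transcripts of early blood cells. In such a sorted population, a change in the share of cells of a type and a change in RNA per cell cannot be told apart.

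The transcripts of the sort markers followed the gates in part. For Runx1, the transcription factor gene itself, populations 1 to 4 gave 55.3, 358, 1297 and 2440.2. VE-cadherin (Cdh5) had 4849 in population 3 against 40.9 in population 4. The CD41 gene, Itga2b, was highest in population 3, with values of 667, 1135, 2418 and 1610 (1609.5) across populations 1 to 4. Its signal was thus also high in population 2, sorted as CD41-, and its SD of 0.79 kept it outside the 184 genes. The array of population 3 was the brightest, with a median probe set signal of 41.4 against 34.6, 30.9 and 36.7 in populations 1, 2 and 4. Over the 9468 genes above 100, the median log2 ratio of population 3 was 0.29 over population 1, 0.22 over population 2 and -0.06 over population 4, with signals under 100 raised to 100. Population 3 was the highest for 26.3% of all genes above 100.

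The rule was also applied on other scales. After each array was centred on its median, 74 genes met the rule, all of them among the 184, and after quantile normalisation 84 did, 79 of them among the 184. Together 70 of the 184 genes (34, 25 and 11 of those with population 1, 2 and 4 as the next highest) met it on both scales, and these are called scale-stable below.

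**Figure D1:**
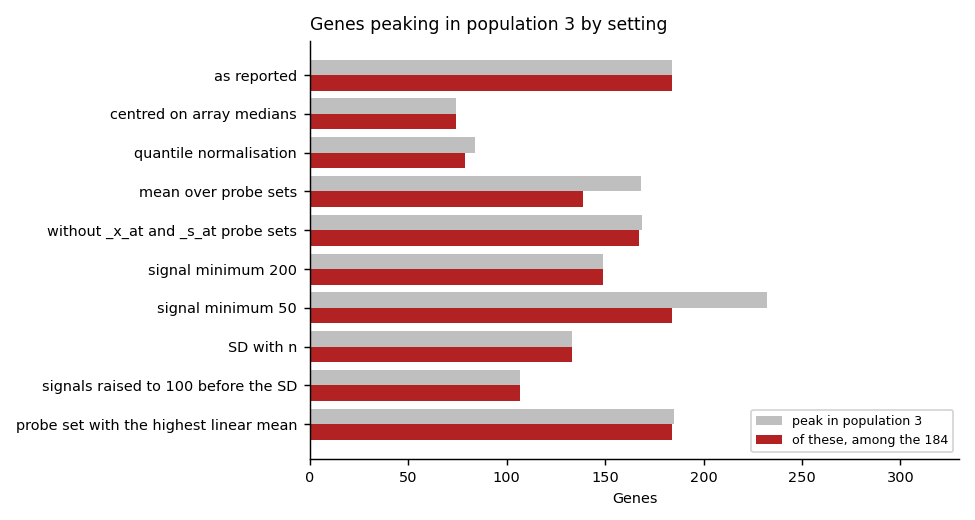
Number of genes that peak in population 3 (horizontal axis) under each setting. Grey bars count all genes that meet the rule and red bars those shared with the 184 genes. Centring left 74 genes and raising signals to 100 before the SD left 107.

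The 184 genes exceeded their next highest population by a median of 1.18-fold, with signals under 100 raised to 100. In all, 131 were at least 1.1-fold, 41 at least 1.5-fold and 14 at least 2-fold above every other population. The remaining 53 lay under 1.1-fold, a margin that single arrays do not rank. Of all 9468 genes above 100, 22 (0.232%) reached 2-fold, and those not among the 184 missed the SD limit. Signals of the 184 genes in population 3 ran from 101 for Nexmif to 5446 for Apoe, with 35 genes below 200 and 54 above 1000.

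Against population 1, population 3 was at least 2-fold higher for 43 of the 184 genes (5.32% of all genes above 100), and against population 2, 45 were (3.11%). Against population 4, 140 were (12.2%). These contrasts were used in the selection, so the counts are a description. The median signal of the genes was 332, 329, 580.4 and 87.8 in populations 1 to 4, and 101 of them lay below 100 in population 4. Population 4 was the lowest for 147 genes (79.9%), as it was for 59.7% of the 1380 variable genes.

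Among the 184, the 14 genes at least 2-fold above every other population included 2 of leukotriene synthesis, Alox5ap and Ltc4s. They also held Lyve1 and the clotting factor gene F5. Leukotrienes are lipid mediators of myeloid and mast cells, made from arachidonic acid by 5-lipoxygenase with the help of its activating protein. Alox5ap, which encodes that protein, gave 780.0, 984, 4454 and 1090.3 across populations 1 to 4, so that population 3 was 4.09-fold above population 4. Ltc4s, the synthase that joins glutathione to leukotriene A4, had 63.2, 82.6, 388 and 19.9. Only population 3 was above 100 for Ltc4s, so it was at least 3.88-fold above each of the others.

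Other genes of the eicosanoid pathway had different profiles. Of 15 listed genes, 9 had a signal above 100, and Alox5ap and Ltc4s were the members that peaked in population 3 past the SD limit, while 4 others were highest in population 4. The 5-lipoxygenase gene Alox5 had signals of 35.9, 26.7, 130.4 and 171. Pla2g4a, the phospholipase that frees arachidonic acid, had 595 in population 3 and 661 in population 4, against 69.5 in population 1 and 76.9 in population 2. Lta4h, whose product turns leukotriene A4 into B4, was nearly level, with 1024, 1159, 1247 and 829.

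Lyve1, a hyaluronan receptor of lymphatic vessels, embryonic endothelium and some macrophages, was 1 of the 3 genes at least 4-fold above every other population on the deposited scale, with Alox5ap and Apobec2, while Ltc4s has only a lower bound. Its signals were 366, 227, 1504 and 57.5 in populations 1 to 4, so that population 3 was 4.11-fold above population 1 and 6.62-fold above population 2. A second probe set of the gene gave 252, 164, 957 and 16.6. Mrc1, the mannose receptor of macrophages and sinusoidal endothelium, had 2011, 1593, 3503 and 25.0, so that population 3 was at least 35.0-fold above population 4. The scavenger receptor genes Stab1 and Stab2, which share cells with Lyve1 in sinusoids, were highest in population 1 instead. Stab1 had 372 in population 3 against 978 in population 1, and Stab2 had 40.3 against 203.

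F5 encodes coagulation factor V, the cofactor with which thrombin is made. Its signals were 34.0, 62.7, 299 and 127 in populations 1 to 4, and another probe set was also highest in population 3, with 166 against at most 51.1. F13a1, the A subunit of factor XIII, which cross-links fibrin and is found in platelets and macrophages, had 16.5, 24.9, 407 and 239.7, so that population 3 was at least 4.07-fold above populations 1 and 2. On the endothelial side, the gene of the tissue factor pathway inhibitor, Tfpi, had 2220.4, 1641, 3373 and 243. The gene of the endothelial protein C receptor, Procr, which also marks blood stem cells, had 583, 541, 859.6 and 38.2. F5 and F13a1 were thus shared with population 4, while Tfpi and Procr were shared with populations 1 and 2.

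Slco4a1, an organic anion transporter gene, had signals of 89.5, 69.2, 1161 and 318, so that population 3 was at least 11.6-fold above population 1. Apobec2, of the cytidine deaminase family, had 62.4, 169, 718 and 179. Both were below 100 in population 1 and lower in population 4 than in population 3.

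The signalling genes of this set were Sash3, Skap1, Nlrc3, Bcl3 and Gem. Sash3, an adaptor of lymphoid cells, had 115, 143, 591 and 221 in populations 1 to 4. Skap1, an adaptor that links antigen receptors to integrins in T cells, had 68.2, 235, 483 and 80.9. Nlrc3, of the NOD-like receptor family, had 201, 318, 721 and 71.5, with its lowest signal in population 4. Bcl3, a nuclear partner of NF-kappaB subunits, had 279 in population 3 and at most 130.5 elsewhere, and Gem, a small GTPase gene, had 552 against at most 268.

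The remaining ones of the 14 genes were Bmp2, Tent5a and Spon1. The growth factor gene Bmp2 was the brightest after Alox5ap, with signals of 602, 1953, 4141 and 1802. Tent5a, of the terminal nucleotidyltransferases, had 298 in population 3 against at most 142 in the others. Spon1, an extracellular matrix protein gene, had 274 against at most 95.5. Of the 14 genes, 8 were still at least 2-fold above every other population after centring, namely Lyve1, Alox5ap, Apobec2, Ltc4s, Slco4a1, Spon1, F5 and Sash3, and the same 8 were after quantile normalisation. Sash3 kept its margin but no longer passed the SD limit. With the mean over a gene's probe sets, the others of which stayed below 100 in these 4 genes, the log2 margin was 0.88 for Apobec2, 0.03 for Nlrc3 and 0 for Skap1 and Spon1. Ltc4s, F5, Spon1, Bcl3 and Tent5a missed the SD limit once signals were raised to 100 before it. Alox5ap, Sash3, Bmp2, Bcl3, Gem and Tent5a missed it with an SD computed with n, the number of populations.

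**Figure D2:**
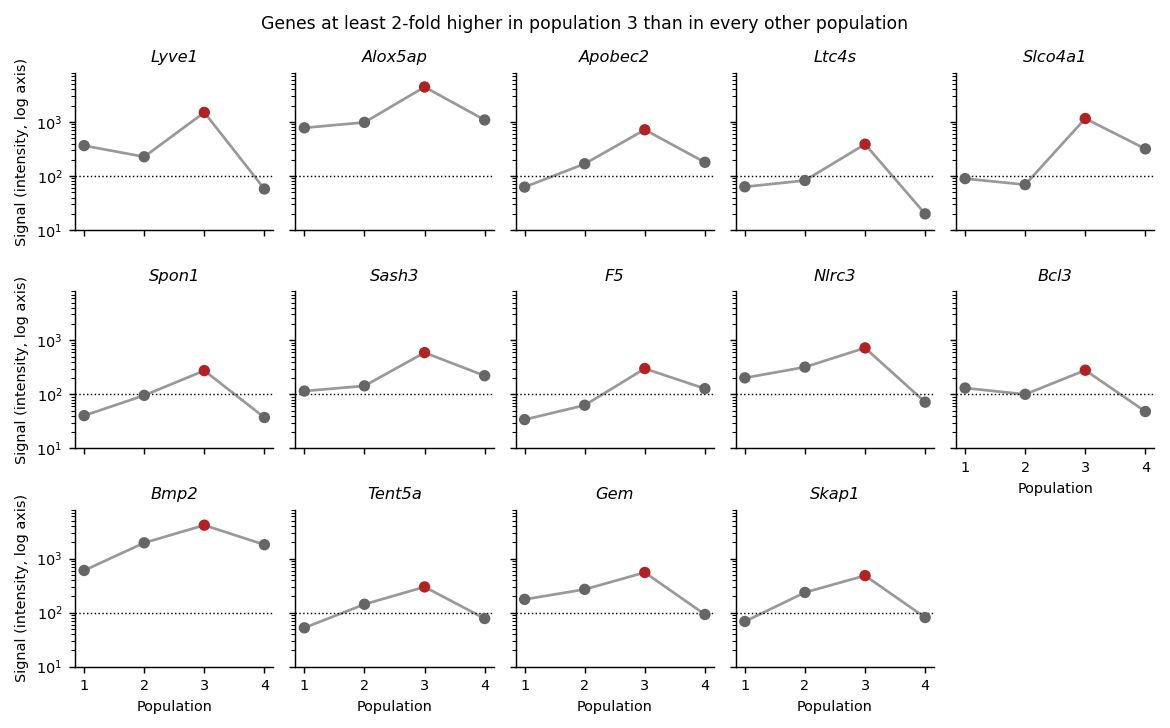
Signal (intensity, log axis) of the 14 genes among the 184 at least 2-fold above every other population, in populations 1 to 4 (horizontal axis). There was 1 array per population, and no error is drawn. Population 3 is in red and the dotted line marks 100. Ltc4s lies at 388 in population 3 and below 100 in the others.

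Promoters were searched on both strands for core letters of binding motifs, in 300 bases of RefSeq sequence from 250 before to 50 after each gene's start (GRCm38.p6). For RUNX factors the letters were TGTGGT and, as the alternative form, TGCGGT. For GATA factors they were AGATAA and, as the alternative form, TGATAA. For ETS factors they were AGGAAG. No letter set holds another, though neighbouring matches can share end letters. Promoters were found for 135 of the 184 genes and for 8 of the 14, of which 3 held a RUNX match, 1 a GATA match, 5 an ETS match and 2 none. The stretches below lie before the start of genes with the largest margins, of Mrc1 and F13a1, or of the myeloid genes described next. Each is 30 bases long and written along the gene's strand, with the match in capitals. In Ltc4s, the RUNX and ETS matches lie 156 and 117 bases before the start.
Ltc4s, RUNX, chr11:50238671-50238700 (minus strand): atgagttccgccACCACAggactaagcacg
Ltc4s, ETS, chr11:50238632-50238661 (minus strand): ggaacaactggaAGGAAGtggtcaagctgt
Tent5a, RUNX, chr9:85327203-85327232 (minus strand): acctccgagaccACCGCAgcgggggcgcgg
Fcgr3, RUNX, chr1:171059419-171059448 (minus strand): tctgctgaccagTGCGGTtaagcaagagag
Apobec2, GATA, chr17:48432866-48432895 (minus strand): ctgtctgcctgcTGATAAatagggggaata
Apobec2, ETS, chr17:48432882-48432911 (minus strand): cccacctgccagCTTCCTgtctgcctgctg
F5, ETS, chr1:164151699-164151728 (plus strand): agcaggcttgccCTTCCTttccctctacat
Sash3, ETS, chrX:48146393-48146422 (plus strand): ctgaagctgggaCTTCCTtcctccctagag
F13a1, ETS, chr13:37050332-37050361 (minus strand): gtcaatggtgacAGGAAGcagctgtgaggg
Mrc1, ETS, chr2:14229366-14229395 (plus strand): taaaagggacagCTTCCTctgtcctccttt
Mpo, ETS, chr11:87793549-87793578 (plus strand): gtggagagagagAGGAAGttgcctttgtcc
A RUNX match was present in 22.9% of the 175 promoters of the 184 genes, against 20.8% of promoters of genes above 100 and 22.4% of all promoters. For GATA the shares were 14.9%, 9.91% and 18.6%, and for ETS 42.9%, 32.5% and 35.4%. Among promoters of genes peaking in populations 1, 2 and 4, ETS matches were present in 37.5%, 25.6% and 33.5%, and RUNX matches in 18.6%, 16.7% and 25.0%. GATA matches were present in 11.4%, 14.4% and 15.3% of them, in the same order. These shares describe letters in a window and were not tested against each other.

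Binding of Runx1 itself is a readout that the selection did not use. Of the 184 genes, 7 (3.80%) were on the study's list of candidate Runx1 targets from ChIP-Seq, as were 6.07% of genes above 100. The shares were 3.59%, 8.99% and 11.1% for genes peaking in populations 1, 2 and 4. For this list the paper pooled binding regions across populations, and it called most of them in the VE-cadherin- cells alone. The list thus draws mainly on population 4, and these shares do not measure Runx1 binding in population 3 cells. The 7 genes were Alox5ap, the flow-responsive factor gene Klf2, the adaptor gene Dok2, the myeloid factor gene Spi1, Rbpms, Aff3 and Eps8. Spi1, also known as PU.1, gave 42.6, 37.3, 154 and 131 across populations 1 to 4, and Dok2 had 74.3, 43.3, 258 and 187. Spi1 and Dok2 were above 100 in populations 3 and 4 only. Some other probe sets of Aff3, Eps8 and Rbpms were highest in population 1 or 2.

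By the population that came next after population 3, the genes fell into 3 classes. Population 4 was next for 25 genes, which had a median signal of 35.8, 43.3, 228 and 158 in populations 1 to 4, and 22 of them lay below 100 in population 1. Population 2 was next for 67 genes, with medians of 311, 452, 595 and 91.5. Population 1 was next for 92 genes, with medians of 502, 351, 675 and 59.0, and 60 of these lay below 100 in population 4. The class next to population 4 was dim in populations 1 and 2, and the others were dim in population 4. With small margins over the next population, the SD limit favours such profiles, so this describes the selection.

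**Figure D3:**
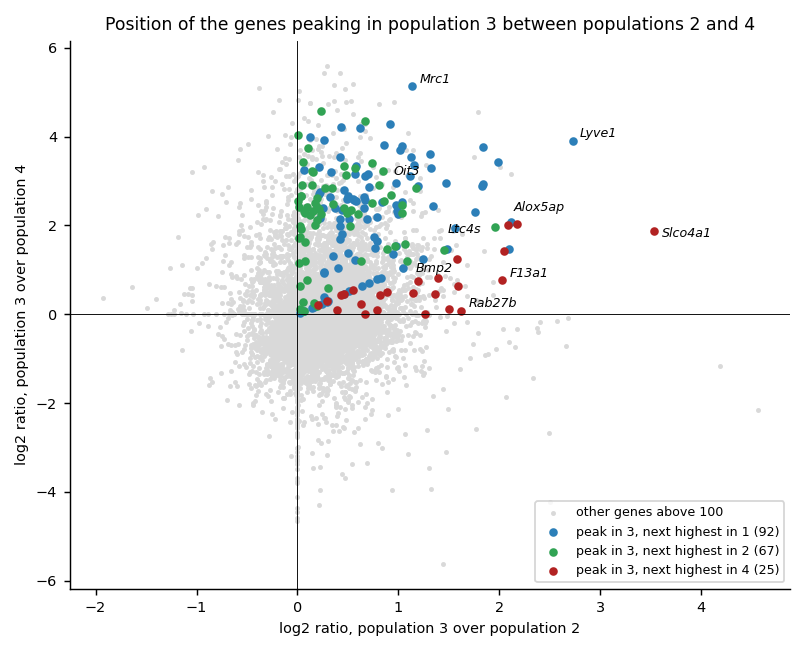
Log2 ratio of population 3 over population 2 (horizontal axis) against population 3 over population 4 (vertical axis), with signals under 100 raised to 100, for genes above 100. Coloured points are the 184 genes by their next highest population. Lyve1 and Mrc1 lie high above population 4, and Rab27b lies close to it.

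Genes of granulocytes, macrophages and platelets made up part of the class shared with population 4. Mpo, the myeloperoxidase of granulocyte precursors, gave 21.4, 61.2, 222 and 158 across populations 1 to 4. Fcgr3, a low-affinity receptor for IgG, had 12.7, 18.0, 185 and 130.2. Rab27a and Rab27b encode GTPases of granule release. Rab27a had 228 in population 3 and 137 in population 4, against 42.3 in population 1 and 76.2 in population 2. Rab27b had 992 in population 3 and 939 in population 4, a margin of 1.06-fold. Its 3 other probe sets were all highest in population 4, the brightest with 619 in population 3 against 1057 in population 4. Ptk2b, a kinase related to focal adhesion kinase, had 176 in population 3 and 130.2 in population 4, against 38.5 or less in populations 1 and 2. Mpo, Fcgr3, Ptk2b and F13a1 were scale-stable, and Rab27a and Rab27b were not. The SD of Mpo, Fcgr3, Ptk2b, F13a1 and Rab27a rested on signals below 100 in populations 1 and 2. None of these genes met the rule once low signals were set to 100 ahead of the SD.

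The wider lists of blood genes are given beside all 1380 variable genes, of which 13.3% peaked in population 3 and 35.9% in population 4. Of 36 myeloid genes, 34 were read and 13 had a signal above 100, of which 7 passed the SD limit, 3 highest in population 3 (Mpo, Fcgr3, Spi1) and 4 in population 4. Tyrobp and Fcer1g, adaptors of myeloid receptors, had 392 and 346 in population 3 against 678 and 466 in population 4. The macrophage markers Adgre1, Cd14 and Aif1 had at most 33.7, 48.7 and 13.6 in any population, and Itgam, Mpeg1 and Ctsg at most 7.20, 7.09 and 4.33. The summed signal of the myeloid list was 3488 in population 3 and 4251 in population 4, against 2060.4 in population 1 and 1709 in population 2. The part of myeloid cells in the signals of Lyve1, Mrc1, Mpo and Fcgr3 was not tested.

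Of 29 megakaryocyte and platelet genes, 22 were above 100 and 16 were variable, with 11 highest in population 4 and 3 in population 3. Those highest in population 3 were Rab27b, Clec1b and Mylk, of which Clec1b was highest in population 1 after centring and after quantile normalisation, and Rab27b in population 4 after centring and by each of its other probe sets. With the mean over probe sets, 1 gene of this list met the rule. Clec1b, the podoplanin receptor of platelets, had 2514, 616, 2627 and 951 in populations 1 to 4. Mylk, the myosin light chain kinase, had 420 (419.8), 282, 553 and 83.0. Itgb3, the partner chain of CD41, had 503 in population 3 and 1354 in population 4. Among 18 genes of leukocyte signalling and actin above 100, 13 were variable, with 12 highest in population 4 and only Lcp2 in population 3. Lcp2, an adaptor also called SLP-76 that acts downstream of Clec1b in platelets, had 600.4, 202, 875 and 207, the same low points in populations 2 and 4 as Clec1b. It did not meet the rule after centring, with the mean over probe sets or with an SD computed with n.

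None of the 23 erythroid genes above 100 peaked in population 3, and 22 were highest in population 4. None of the 14 proliferation genes did, and all 14 were highest in population 4. Of the mast cell list no gene exceeded 100 in any population. The stromal list, whose genes need not come from the feeder cells, had summed signals of 40994, 30427, 33264 and 11151 in populations 1 to 4. Of its 5 variable genes, 0 peaked in population 3. The sum was thus lowest in population 4, as were 147 of the 184 genes, and the part of feeder cells in this was not tested.

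**Figure D4:**
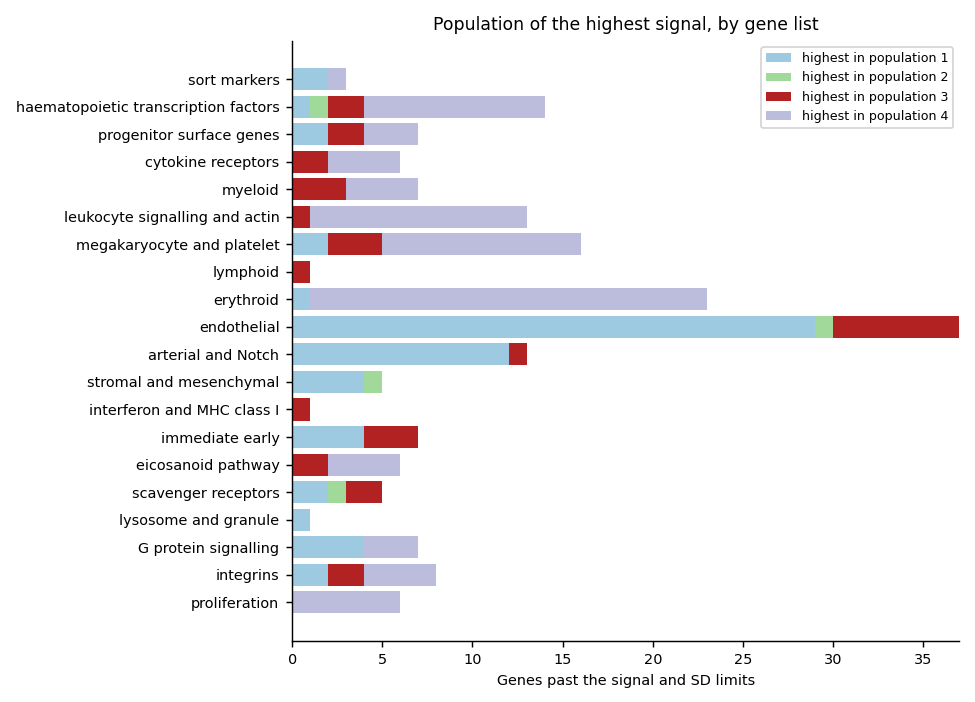
Number of genes past the signal and SD limits (horizontal axis) in each gene list, coloured by the population with the highest signal, on 1 array per population. Of 37 endothelial genes, 7 were highest in population 3, and of 23 erythroid genes 0 were.

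Most endothelial genes peaked in population 1. Of 41 listed, 40 were above 100 and 37 were variable, of which 29 peaked in population 1, 1 in population 2 and 7 in population 3, where 13.3% of all variable genes peaked. The angiopoietin receptor Tek gave 2446, 3169, 3405 and 254 across populations 1 to 4, and the related receptor Tie1 had 1203, 776, 1406 and 66.9. Erg, an ETS factor of endothelium and blood stem cells, had 1178, 1056, 1368 and 259, and another probe set was highest in population 1. Cd34, a sialomucin of both, had 2950.1, 1367, 2974 and 257, so that populations 3 and 1 were 1.01-fold apart. Nrp2, a semaphorin and VEGF-C receptor, and Adgrl4, an adhesion receptor of vessels, exceeded the next population by less than 1.01-fold, with 1785 and 1962 in population 3. Of the 7 genes only Lyve1 was scale-stable, and the others, within 1.2-fold of population 1 or 2, were no longer highest in population 3 after centring. The median log2 ratio of the 40 genes was -0.40 for population 3 over population 1, 0.30 over population 2 and 3.28 over population 4, where that of all genes above 100 was 0.29, 0.22 and -0.06.

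Some scale-stable genes outside the endothelial list also had their lowest signal in population 4, as did 147 of the 184 genes. Klf2, induced by blood flow in endothelium, gave 1630 (1629.9), 1142, 2471 and 284 across populations 1 to 4. Gja4, the arterial connexin 37, had 1229, 1121, 1545 and 223, and was the only one of 13 variable arterial and Notch genes to peak in population 3, while the other 12 peaked in population 1. Igf1, the insulin-like growth factor, had 2364, 1236, 3064 and 249. Lifr, the receptor for leukaemia inhibitory factor, had 1683, 2024, 2789 and 277, and Il4ra, an interleukin receptor chain, had 118, 75.7, 173 and 31.9. Ebf1, a factor of B cell and stromal differentiation, had 540.2, 391, 772 and 44.6, while the other lymphoid genes read here stayed below 100 in all populations.

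Immediate early genes respond to stimuli within minutes. Of 19 such genes above 100, 7 were variable. Of the 7, 4 were highest in population 1 (44.3% of all variable genes) and 3 in population 3 (13.3%). Besides Klf2 these were Nr4a1, an orphan nuclear receptor, with 1259, 726, 1844 and 342 in populations 1 to 4, and Klf4, with 3184, 1797, 3625 and 280 (279.7). Fos, the AP-1 subunit, had 1395 in population 3 against 2871 in population 1, and Egr1 had 1295 against 2323. Klf4 was no longer highest in population 3 after centring, while Klf2 and Nr4a1 were. In the list, 12 of the 19 genes were at least 2-fold above population 4 in population 3, as were 12.2% of all genes above 100.

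Part of the class next to population 1 had a signal in population 2 well below that in population 3. In 24 of its 92 genes population 3 was at least 2-fold above population 2, as in 3.11% of all genes above 100. This contrast was used in the selection. Population 4 was the lowest for 89 of the 92 genes and population 2 for 3. Among the 24 genes were Lcp2, Clec1b, Cd34, Klf2, Nr4a1 and Rsad2. Rsad2, the antiviral enzyme viperin, had 714, 224, 797 and 108 in populations 1 to 4. Of the interferon and MHC list, 7 of 9 genes above 100 were highest in population 3, as were 26.3% of all genes above 100 on this brightest array, but Rsad2 alone passed the SD limit, and after centring it was highest in population 1. Ifitm3 missed it with an SD of 0.99 and signals of 1872, 1127, 2249 and 482. Ifitm1 had 1441 in population 3 and 518 to 598 in the others.

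By its definition, the class next to population 2 held genes whose signal in CD41- cells exceeded that in population 1. Npl, an enzyme of sialic acid breakdown, had 233, 831, 1629 and 561 in populations 1 to 4. Oit3 had 202, 520.0, 936 and 24.4, and Bmper, which binds BMP proteins, had 101, 324, 585 and 76.8. Wnt4, a secreted Wnt ligand, had 138, 150.1, 278 and 30.5. Car8, of the carbonic anhydrase family, had 662, 1689, 2515 and 256. All 5 genes, chosen after their values were seen, were scale-stable, and all but Wnt4 had at least 2-fold the signal of population 1 in population 2.

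Among the brightest of the 184 genes in population 3 were Apoe, Gsta4, Ctla2b, Alox5ap, Bmp2, Itga6 and Klf4. Apoe, which carries lipids and is made by macrophages, gave 2608 (2607.5), 3764, 5446 and 1062 across populations 1 to 4. Gsta4, a glutathione transferase for lipid peroxides, had 2007, 4622, 5292 and 984, and Ctla2b had 2002, 4920.5, 5037 and 795.5. Itga6, a laminin receptor chain, had 3629 in population 3 and 3578 in population 1. Of these 7 genes, Alox5ap, Bmp2 and Apoe were scale-stable, and the other 4 were no longer highest in population 3 after centring.

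Other probe sets of the same genes were not used by the rule, although they come from the same RNA. Of 189 such probe sets, 93 had a signal above 100, and they covered 61 of the 184 genes. Population 3 was the highest for 73 of them, population 1 for 13, population 2 for 3 and population 4 for 4. In 44 of the 61 genes every such probe set was highest in population 3. Between a gene's probe sets, the log2 margin differed by a median of 0.23 over 93 pairs, which is close to the median margin of the 184 genes themselves.

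The limits of the rule passed through groups of near neighbours. Just inside the SD limit were Slc2a12, Ctsw and Tecpr1 with SDs of 1.00, 1.00 and 1.01, and just outside Hivep2, Hspb1 and Ifitm3 with 1.00, 1.00 and 0.99. Nexmif, Stat4 and Thnsl2 had signals of 101, 105 and 105 in population 3, while Il27ra, Il15 and Cd200 missed the signal limit with 98.2, 97.5 and 96.4. Arhgef7, Adgrl4 and Nrp2 were highest in population 3 by the smallest margins, such as 1962 against 1960.2 in population 1 for Adgrl4. Sh3tc1, Hoxb4 and Snn fell just short, with Hoxb4 at 173 in population 3 and 174 in population 2. Its neighbours in the Hoxb cluster, Hoxb3 and Hoxb5, were inside, with 397 and 206 in population 3 against 12.1 and 1.41 in population 4.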

How the data were processed

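The deposited values are linear intensity values, 1 for each probe set of an Affymetrix mouse array. The authors made them with MAS5 in GCOS 1.3, per the submitters' processing notes in the labels, and the scaling target and detection calls are not given in the sources used here, so levels between arrays rest on that scaling. Of 45101 probe sets, 34958 are annotated to 1 gene and 932 to several, which were left out with those unnamed. Symbols were updated through gene records of GRCm38.p6. Ratios used signals raised to 100 where lower, so folds over them are lower bounds. With 1 array per population no test was made, and precision is limited by the number of arrays. The 21 gene lists (422 genes) and the members were chosen with earlier results of these data known. Genes were named by margin (12), by signal in population 3 (8, of which 1 is not reported here), by list (up to 6 each, by margin), as sort markers, by a printed promoter stretch, or as nearest to a limit of the rule (3 each side). Others, such as F13a1, Npl, Tfpi, Igf1, Rab27a, Ptk2b, Oit3, Bmper, Wnt4, Car8, Hoxb3, Hoxb5, the listed non-members given for comparison and those on the candidate target list, were chosen after their values were seen. Promoter sequences are RefSeq's, without chromosome 18. Alternatives were other scalings, probe set choices, limits and floors. Python 3.11.15, pandas 2.3.3, numpy 2.4.6 and matplotlib 3.10.9 were used, and the rule was tested on simulated data with genes planted at known folds.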

Additional observations from a re-analysis of the deposited data

How the results depend on the processing

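Of the settings tried, those on the scale between arrays moved the counts most. After centring on array medians, 74 genes peaked in population 3, 7 of them at least 2-fold above every other population and 3 candidate Runx1 targets, in place of 184, 14 and 7. Quantile normalisation gave 84, 7 and 3. Sash3, outside both sets by its SD, kept a 2-fold margin on both scales. With signals raised to 100 before the SD there were 107, 9 and 4, and with an SD computed with n, 133 genes remained, with 8 and 4. The other settings (the mean over probe sets, leaving out shared probe sets, a signal minimum of 50 or 200, and the probe set with the highest linear mean) gave 149 to 232 genes, 11 to 14 at least 2-fold and 6 or 7 targets. The mean over probe sets shared 139 genes with the 184. For the margins of single named genes, 154 of 240 values moved by less than 0.23 (log2), and the other 86 by more. Of the 14 genes at least 2-fold above every other population, 10 kept this with the mean over probe sets. The myeloid list held 3 of the 184 genes, but 1 with a signal minimum of 200 and 0 with signals raised to 100 before the SD. No paired analysis was possible because each population had 1 array. At signals near 100, where 35 of the 184 genes lay below 200 in population 3, no detection calls were used here.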
